A study of Mus musculus with 121 samples.

Results

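The genes of the cytosolic ribosomal proteins, the proteins that with ribosomal RNA make up the ribosomes of the cytoplasm, were followed through the irradiation of 6 transplanted mouse tumours. Members were all genes whose array probe carries a single symbol of the form Rpl or Rps followed by a number, or Rplp0, Rplp1, Rplp2 or Rpsa, without the Rps6k kinases and without pseudogene symbols. The rule found 62 genes with 81 probes among 36227 probes on the array. Of these, 59 genes had a probe with values on at least 90% of the arrays, and the brightest such probe stood for the gene. All 59 were bright enough to be tested, among 12962 genes tested in all. Rpl34, Rpl41 and Rps2 had no probe with enough values, the best of them having values on 97, 107 and 68 arrays, while the member nearest to that limit, Rpl35, had values on 113. A further 11 probes named more than 1 gene, among them probes of Rpl12, Rpl37 and Rps27, and were not used. Rps19bp1 carries a matching symbol but encodes a protein that binds Rps19, not a ribosomal subunit.

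Each ribosome has a small subunit, which reads the messenger RNA and holds the Rps proteins, and a large subunit, which joins the amino acids and holds the Rpl proteins. Rplp0, Rplp1 and Rplp2 form the P stalk, which brings translation factors to the ribosome, and Rpl5 and Rpl11 carry the 5S RNA and can bind and inhibit Mdm2, the ubiquitin ligase of p53. Most messenger RNAs of ribosomal proteins start with a C inside a run of pyrimidines, the 5' terminal oligopyrimidine (TOP) tract, through which the growth-regulating kinase complex mTORC1 controls their translation. A few members are paralogs with a narrower use: Rps27l is a transcriptional target of p53, Rpl3l replaces Rpl3 in striated muscle, and Rpl39l is known from testis and some tumours.

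The start sites of the members that the results turn on are printed to show the letters around the start, with and without a long run of pyrimidines. Of the 59 members, 47 had a promoter window in RefSeq (GRCm38.p6), and each line gives 30 bases before and 15 bases from the annotated start, 5' to 3' on the gene's strand. Capitals mark the longest run of C and T that touches the stretch from 5 bases before to 10 bases after the start.
Rpl7a (chr2:26910777-26910821, plus strand; large subunit): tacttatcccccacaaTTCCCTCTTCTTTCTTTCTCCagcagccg
Rps9 (chr7:3704011-3704055, plus strand; small subunit): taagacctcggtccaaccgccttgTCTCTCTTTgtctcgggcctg
Rpl15 (chr14:18270972-18271016, minus strand; large subunit): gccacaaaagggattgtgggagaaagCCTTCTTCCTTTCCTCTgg
Rpl14 (chr9:120571487-120571531, plus strand; large subunit): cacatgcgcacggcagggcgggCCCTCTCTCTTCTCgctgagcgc
Rps27l (chr9:66946056-66946100, plus strand; p53-responsive paralog of Rps27): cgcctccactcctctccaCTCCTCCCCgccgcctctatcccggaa
Rps15a (chr7:118116133-118116177, minus strand; small subunit): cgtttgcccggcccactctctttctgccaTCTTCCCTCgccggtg
Rpl39l (chr16:10170198-10170242, plus strand; paralog of Rpl39): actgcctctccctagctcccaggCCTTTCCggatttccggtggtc
Rpl11 (chr4:136053379-136053423, minus strand; partner of the 5S RNA): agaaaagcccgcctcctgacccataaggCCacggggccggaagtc
Rpl26 (chr11:68901536-68901580, plus strand; large subunit): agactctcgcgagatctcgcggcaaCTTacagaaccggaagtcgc
Rpl22 (chr4:152325696-152325740, plus strand; large subunit): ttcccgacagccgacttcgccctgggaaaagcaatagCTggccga
Rpl3l (chr17:24727796-24727840, plus strand; muscle paralog of Rpl3): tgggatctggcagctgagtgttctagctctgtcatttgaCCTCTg
The runs of Rpl7a, Rpl15 and Rpl14 held 21, 17 and 14 pyrimidines, those of Rps9, Rps27l and Rps15a held 9, and those of Rpl11 and Rpl22 held 2. The median run was 5 in the members and 4 in all windows. A run of at least 8 was found in 17 of the 47 members, or 36.2%, and in 11.1% of all 27025 windows. The first base was a C in 31.9% of members and in 16.2% of all windows. The letters CGGAAG or their reverse complement CTTCCG, the core that ETS family factors such as Gabpa bind, stood in the 300 bases of 32 members (68.1%) against 17.2% of all windows. CTTCCG consists of pyrimidines except for its last base and can overlap a run. TATAAA was found within 50 bases before the start, on the gene's strand, in 0 of 47 members and in 2.9% of all windows. The annotated starts can lie some bases away from those used in these tumours, and a match is a description of letters only.

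The tumours grew in the hind legs of C3H/HeMs male mice and were given their dose locally and at once, which the series' text states for gamma rays only. A radiation-induced fibrosarcoma stood beside tumours of spontaneous origin: nfsa, also a fibrosarcoma, mmca and mca4, which are carcinomas of the mammary gland, and scc7 and nrs1, labelled squamous cell carcinoma. The 81 gamma-ray arrays covered the first 4 tumours unirradiated and at 30, 50 and 70 Gy on day 1. Unirradiated mmca was also taken on day 9. Later gamma groups had 30 or 50 Gy: days 8, 16 and 22 for the radiation-induced fibrosarcoma, days 4 and 9 for nfsa, days 9 and 19 for mmca, days 11, 25 and 41 for mca4, days 8, 23 and 35 for scc7 and days 8 and 15 for nrs1. The 40 carbon-ion arrays covered mmca and mca4 unirradiated (hour 0) and at hour 6 and days 1, 3, 5 and 20 after 30 Gy, and the other tumours at day 5 and at day 20 (day 42 for scc7) with no unirradiated arrays. Of the 54 groups, 41 had 2 arrays and 13 had 3. The labels do not say whether arrays of a group came from separate animals, so p-values measure only the spread between these arrays, which may be technical. Animals were killed at set times or at recurrence, so time and regrowth cannot be told apart. Arrays are single-colour CodeLink arrays of whole dissected tumours, and a change in a member can come from fewer cells of a type or less RNA per cell, which cannot be told apart. As a check of the labels, Cdkn1a, the p53-induced inhibitor of the cell cycle, rose by 2.0 on the log2 scale on day 1 after gamma rays and by 0.94 on day 1 after carbon ions. The 13 epithelial marker genes averaged 5.93 to 6.27 on nrs1 arrays and -0.23 to 0.07 (log2 intensity) on scc7 arrays, so the squamous label of scc7 was not borne out by these markers.

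Most members shone at the upper end of the array. In 37 members, called the top tier here, the mean distance to the brightest spot of the array was below 0.5 on the log2 scale, and 94.04% of their 4415 values lay within 0.5 of that spot, a description of the rule that chose them and not a finding. The brightest spot of an array can itself be a member. The brightest spot ranged from 7.505 to 9.57 over all arrays, and the median of the top tier from 7.31 to 9.10, always 0.106 to 0.49 below it. On a given array these 37 genes were almost equal, with a standard deviation among them of 0.101 at the median array. The second tier held 9 members between 0.5 and 1.2 below the brightest spot: Rpl31, Rpl8, Rps13, Rps24, Rpl11, Rpl27, Rpl14, Rps7 and Rps27l. The lower tier held 13: Rpl13a, Rpl26, Rpl7l1, Rps9, Rps19bp1, Rpl15, Rplp1, Rpsa, Rps15a, Rpl7a, Rpl39l, Rpl17 and Rpl3l. The limits were set after the values were seen: Rpl36al (0.466 below) and Rpl31 (0.537 below) lie either side of the first, Rps27l (1.15) and Rpl13a (1.58) either side of the second. Within groups the median standard deviation of a member was 0.122 in the top tier, 0.153 in the second and 0.184 in the lower tier. A bright probe here is not proof of a more abundant messenger RNA, and no level is set against another probe's. The probes used for Rpl7a, Rpl15, Rpl17 and Rpsa, all of the lower tier, and for Rpl29 are annotated to no RefSeq transcript. The file carries no saturation flag, and the part of scanner saturation in the top tier's values was not tested.

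**Figure D1:**
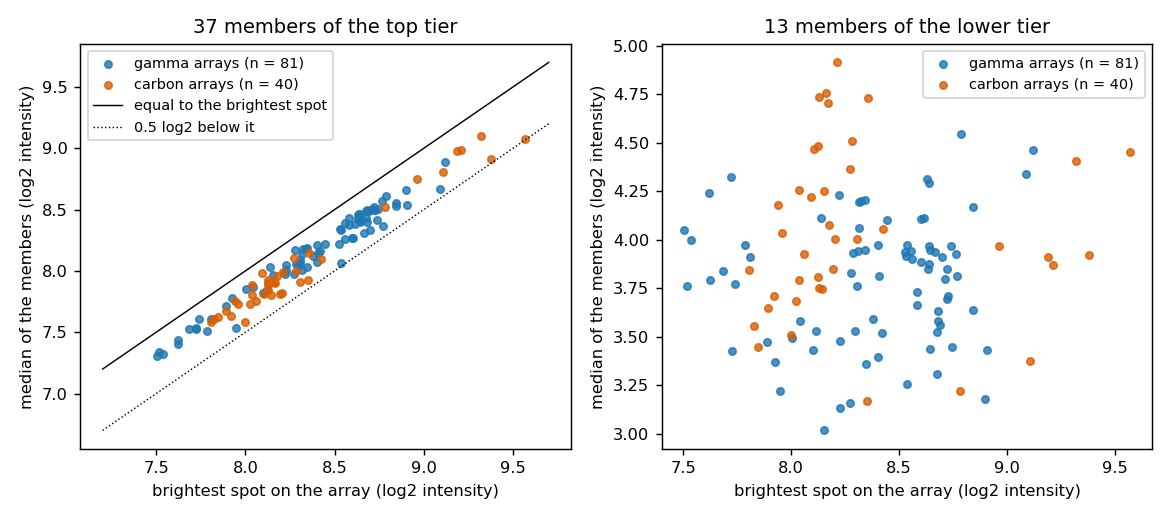
Median log2 intensity of the 37 top-tier members (left) and of the 13 lower-tier members (right) against the brightest spot of the same array, 1 point per array, blue for 81 gamma arrays and orange for 40 carbon arrays. The top tier follows the brightest spot from 7.31 to 9.10, between the solid line of equality and, within 0.5, the dotted line; the lower tier shows no such line. The closeness of the top tier to the brightest spot follows from how the tier was chosen, and that spot can be a member itself.

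Probes annotated to one and the same gene often changed by unlike amounts. For Rpl22, 2 probes with mean log2 intensities of 8.09 and 8.06 changed by -0.30 and -0.28 between unirradiated carbon arrays and day 20, while another probe with a mean of 4.44 changed by -1.51. For Rpl27a the bright probes (8.13 and 8.01) changed by -0.19 and -0.38 and the dim one (4.75) by -1.52. For Rps4x a probe only slightly dimmer, 7.75 against 8.18, changed by -0.94 against -0.23. Among the 9 genes that had a bright probe and at least 1 more with values on at least 90% of the arrays, the dimmest probe fell by more than the brightest in 7, the others being Rpl4 and Rps13. For Rpl11 a brighter probe, with a mean of 8.24 on 107 arrays, was left out for its missing values. These are the same arrays seen through different probes, and no test was made of the difference. The dimmest probes of Rpl29, Rpl5, Rps13 and Rps20 are annotated to another sequence record than the brightest probe of the gene. For these genes a difference in target and a difference in brightness cannot be told apart. Which probe sequence matches which transcript was not examined here, and many ribosomal protein genes have processed pseudogenes that a probe may also bind.

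**Figure D2:**
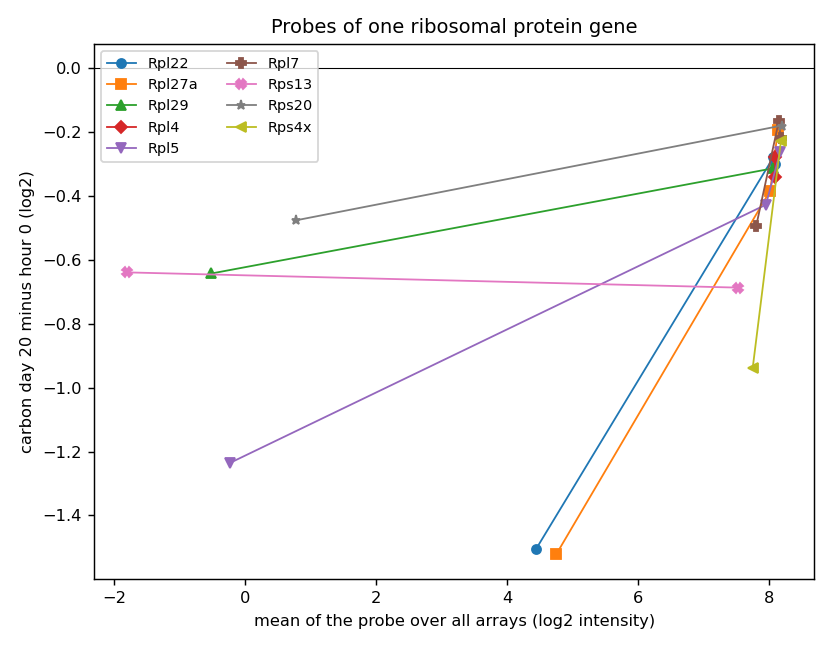
Change from hour 0 to day 20 after carbon ions (log2, mean of mmca and mca4) against the probe's mean log2 intensity over all arrays, for the 9 members with a bright probe and at least 1 more with values on at least 90% of the arrays; lines join probes of a gene. Probes with a mean above 8 changed by -0.16 to -0.38, those of Rpl22 at 4.44 and Rpl27a at 4.75 by -1.51 and -1.52.

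As deposited, most ribosomal protein genes of the 2 mammary carcinomas were lower on day 20 after carbon ions than at hour 0. The carbon set has unirradiated arrays at hour 0 alone, so time and irradiation cannot be told apart in it. The median change below the top tier was negative under each scaling tried. On day 20 against hour 0, 51 of 59 members were called lower and 3 higher, against 43.7% of all tested genes called lower, 27.3% higher and 71.0% called at all. The 37 top-tier members had a median change of -0.26 with 33 lower, the second tier -0.81 with 9 of 9 lower, and the lower tier -0.74 with 9 lower and 3 higher, beside a median of -0.14 over all genes. Calls are limma's moderated test with Benjamini-Hochberg adjustment over all genes. Under quantile normalization, which forces all arrays to one distribution of brightness, the top tier moved to about 0 and 27 members were called lower and 4 higher, while the medians of the second and lower tiers were -0.81 and -0.48 (36.6% of all genes lower, 29.7% higher, 66.3% called). With every array scaled to the brightest 1% of other genes, 20 members, a minority, were called lower. The share of all genes under this scaling is not given here, so the count is not read against other genes. Under the same scaling the second and lower tiers had medians of -0.55 and -0.48. The 85 genes of the top 1% that are not members had, as deposited, a median of -0.27, with 51 lower and 8 higher.

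Rplp1, of the P stalk, had the largest fall. Its log2 intensities in mmca were 4.70 and 4.36 at hour 0, 4.26 and 4.22 at hour 6, 4.42 and 4.25 on day 1, 3.85 and 3.81 on day 3, 3.64 and 3.36 on day 5 and 3.14 and 3.02 on day 20. In mca4 they were 4.92 and 5.06, then 4.72 and 4.92, 5.03 and 5.19, 4.00 and 4.2, 3.73 and 3.93, and 3.17 and 3.31 at the same times. Both tumours stayed near their starting level through day 1 and were below it from day 3, with no overlap between hour 0 and any array of days 3 to 20. The mean fall by day 20 was 1.60 ± 0.16 (SE; adjusted p = 5.22e-14 by limma), to 0.329 of the hour 0 level. Under quantile normalization the change was -1.47.

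Other members of the lower and second tiers were also lower on day 20 than at hour 0. Rps9, which lies near the messenger RNA entry of the small subunit, went from 5.62 and 5.27 in mmca to 4.47 and 4.17 on day 20, and from 5.74 and 5.90 in mca4 to 3.77 and 4.24, a change of -1.47 ± 0.15 (adjusted p = 1.10e-13, limma). Rpl7a went from 2.96 and 2.90 to 1.34 and 1.50 in mmca and from 2.73 and 2.85 to 1.52 and 1.41 in mca4 (-1.41 ± 0.15, adjusted p = 3.65e-13, limma). For both genes every array of day 20 lay below every array of hour 0. Rpl11, the 5S RNA partner, is one of the brighter of these and fell from 7.47 and 7.56 to 6.45 and 6.46 in mmca, and from 7.65 and 7.62 to 6.42 and 6.64 in mca4, to 0.471 of its hour 0 level (adjusted p = 1.03e-15, limma). Rpl15, Rpl13a, Rpl26 and Rpl14 changed by -1.04, -0.97, -0.97 and -0.96, and Rps24, Rpl27, Rpl8 and Rps7 by -0.86, -0.84, -0.81 and -0.80. Their falls were called with adjusted p of 4.25e-09 or smaller in limma. Under quantile normalization the fall of Rpl26 was 0.43 and still called (adjusted p = 0.0138, limma). The partners of these proteins in the top tier moved less: Rplp2 changed by -0.26 and Rpl5 by -0.26, and Rplp0 by -0.14 (adjusted p = 0.121, limma), from 7.90 and 8.07 to 7.69 and 7.66 in mmca and from 7.81 and 7.91 to 8.10 and 7.69 in mca4. Scaling turned the direction of these: Rplp0 was at 0.14 and Rplp2 at 0.007 after quantile normalization, and Rpl5 at 0.001 against the brightest 1%. Leaving out the second hour 0 array of mmca or the second day 20 array of mca4 took away the call of Rpl5 (-0.21 and -0.18).

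**Figure D3:**
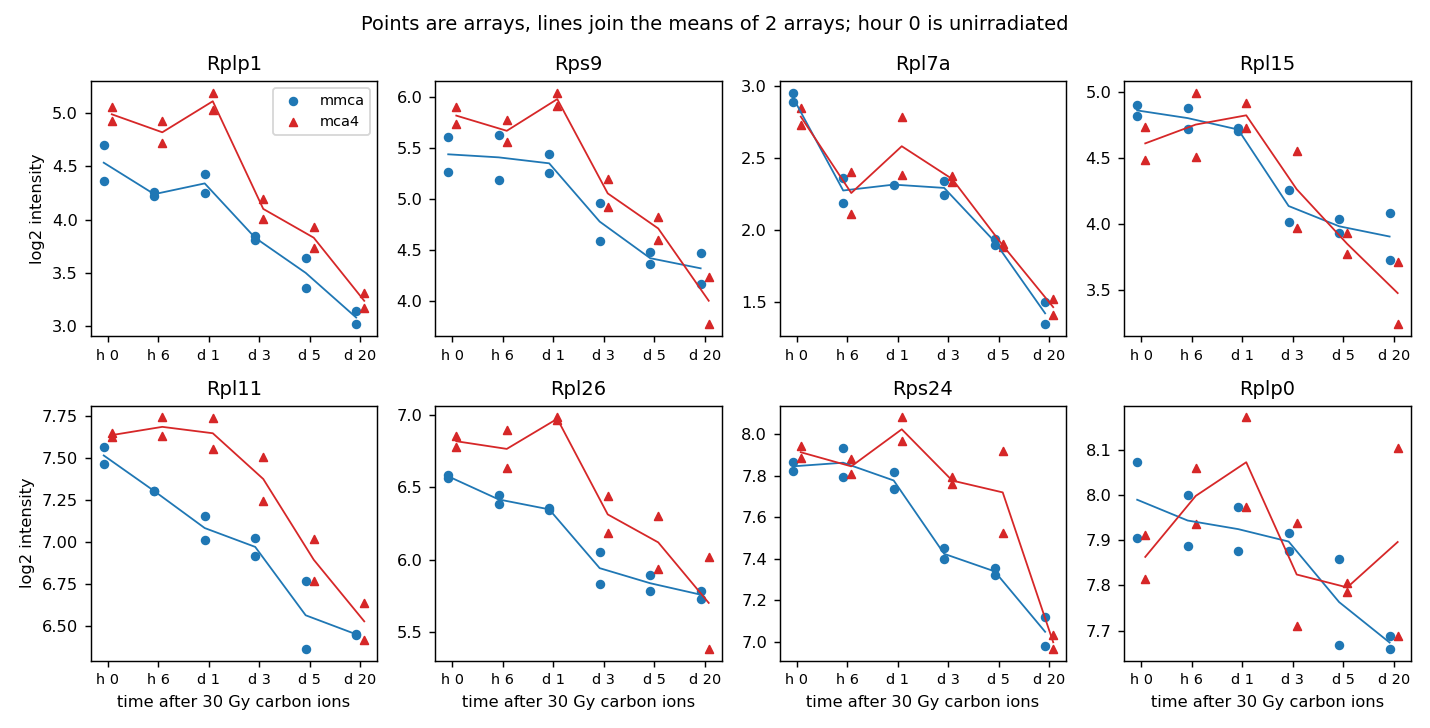
Log2 intensity of 8 members on each carbon-ion array of mmca (blue circles) and mca4 (red triangles) at hour 0 (unirradiated), hour 6 and days 1, 3, 5 and 20 after 30 Gy; times are evenly spaced and not to scale, each panel has its own vertical axis, and lines join group means of 2 arrays. Rplp1, Rps9, Rpl7a, Rpl15, Rpl11, Rpl26 and Rps24 are lowest on day 20 in mca4, and Rplp0, of the top tier, stays between 7.66 and about 8.2.

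Before day 3 the calls were few. On day 1 only 1 member was called against hour 0, with 8.00% of all genes called (1036 genes, and 2820 at an unadjusted p below 0.05), 4.17% higher and 3.83% lower. That member was Rps15a, with 3.13 and 3.22 in mmca and 3.25 and 3.24 in mca4 at hour 0 and 3.56, 3.51, 3.56 and 3.49 on day 1 (0.32 ± 0.10, adjusted p = 0.036, limma). Its arrays did not overlap, but the call was lost when any 1 of these 8 arrays was left out and under quantile normalization (adjusted p = 0.0521, limma). At hour 6, 0 members were called in mmca and 0 in mca4 by limma, beside 4.96% and 2.27% of all genes (2199 and 1660 genes at an unadjusted p below 0.05). Rpl7a was at 2.19 and 2.36 in mmca and at 2.40 and 2.11 in mca4 at hour 6, below all hour 0 arrays, without passing the test (adjusted p = 0.0594 and 0.231, limma). Rpl11 in mmca was at 7.01 and 7.16 on day 1 (-0.43, adjusted p = 0.0553, limma), while in mca4 it had changed by 0.01. On days 3 and 5 together, 31 members were called lower and 2 higher (37.2% of all genes lower, 21.8% higher, 59.0% called). The second tier had a median of -0.31 with 8 of 9 lower, the lower tier -0.47 with 9 of 13 lower, and the top tier -0.15 with 14 of 37 lower. After quantile normalization 14 members were lower and 3 higher, beside 29.3% and 23.9% of all genes. Without the second hour 0 array of mmca 16 members were called lower, and without the first hour 0 array of mca4 20. Rplp1 (-0.95), Rps9 (-0.89), Rpl7a (-0.74), Rpl15 (-0.68), Rpl26 (-0.64) and Rpl11 (-0.62) had the largest falls, each called (limma). Of these Rpl26 was not called after quantile normalization (-0.22, adjusted p = 0.176, limma). In mmca 5 of 9 second-tier members were lower on day 3 and 9 on day 5 (20.2% and 32.3% of all genes), in mca4 0 on day 3 and 2 on day 5 (9.31% and 24.6%). By day 20 these counts were 9 and 8, with medians of -0.78 and -0.89 (36.7% and 36.0% of all genes lower). The difference between the tumours was tested on day 1 only, where no member was called (0.193% of all genes).

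By the probes used, 3 members were called higher on carbon day 20. Rpl3l, the muscle paralog, went from 0.18 and 0.45 to 1.58 and 1.96 in mmca and from 0.70 and 0.56 to 2.61 and 2.67 in mca4 on day 20 (1.73 ± 0.67, adjusted p = 0.0174, limma). Beside it, 26 of 28 skeletal muscle markers were called higher on day 20 with a median of 2.37, and their mean rose from 1.57 to 1.88 on hour 0 arrays to 3.61 to 4.38 on day 20 arrays. The tumours lay in leg muscle, and how much muscle a sample held was not measured otherwise. Rpl17 rose by 0.77, from 0.93 and 0.54 to 1.56 and 1.62 in mmca, but its other 2 probes changed by -1.38 and -1.03, so the direction of Rpl17 depends on the probe. Rps15a rose by 0.24 (adjusted p = 0.0284, limma), a call that 5 of the 8 single-array omissions took away. Rpl39l changed by 0.18 (adjusted p = 0.0918, limma), and was called with the second hour 0 array of mmca left out.

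Other genes of the translation apparatus fell in the same comparison. All 18 measured companions with a TOP tract, among them elongation factors, were called lower on carbon day 20 (median -0.76), with Nap1l1, a histone chaperone, at -1.31, the elongation factor Eef2 at -1.24, Eef1b2 at -1.14 and Eif4b at -1.07. Of 39 genes of ribosome assembly and ribosomal RNA transcription 34 were lower and none higher (median -0.86), led by the nucleolar proteins Nolc1 (-1.69), Nop58 (-1.65), Gar1 (-1.46) and Fbl (-1.32). Of 70 mitochondrial ribosomal proteins 58 were lower and none higher (median -0.52). Of 18 regulators of ribosomal protein synthesis 15 were lower, with Myc at -1.66, Max at -1.05, Gabpa at -0.91 and Eif4ebp2 at -0.86. Each list stands beside the 43.7% of all genes called lower. With quantile normalization 14 of 18, 32 of 39 and 49 of 70 of the first 3 lists were still called lower. Markers of other cells moved at the same time: 16 of 16 macrophage markers rose (median 2.04; array means 3.10 to 3.38 at hour 0 and 5.06 to 5.35 on day 20), and 11 of 14 T and NK cell markers rose while 1 fell, beside 27.3% of all genes called higher. Of 18 fibroblast and matrix genes 16 rose and 1 fell, of 13 epithelial markers 8 rose and 1 fell, and of 12 endothelial markers 3 rose and 1 fell. The part of a change in cell makeup in the fall of the ribosomal protein genes was not tested.

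In the remaining tumours carbon-ion arrays began at day 5, so only the course from there can be given. From day 5 to day 20, nrs1 had 9 of 9 second-tier members higher (median 0.67) and 6 of 13 lower-tier members higher, beside 24.5% of all genes. Counts by tier in this paragraph are as deposited. The top 1% of genes outside the family had array medians in nrs1 of 7.81 and 7.88 on day 5 and 8.37 and 8.25 on day 20. Rpl11 in nrs1 was 7.69 and 7.59 on day 5 and 8.47 and 8.38 on day 20, a rise of 0.79 ± 0.14 (adjusted p = 6.98e-06, limma). After quantile normalization the change of Rpl11 was 0.28 and not called (adjusted p = 0.147, limma). In the radiation-induced fibrosarcoma 5 second-tier members rose (median 0.36; 28.0% of all genes), and in nfsa 1 did (12.1%). In scc7, from day 5 to day 42, 6 of 9 rose (median 0.49; 15.5% of all genes), with Rpl11 going from 7.08 and 7.28 to 7.73 and 7.97. In mca4 6 second-tier members fell further (median -0.45; 8.11% of all genes lower), and in mmca 0 were called (8.43% of all genes; 2714 at an unadjusted p below 0.05). Whether these courses differ between tumours was not tested.

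On day 1 after gamma rays the medians of the tiers, as deposited, differed in direction. Over 30, 50 and 70 Gy and 4 tumours, 56 members could be compared, since 3 members, among them Rps24, lacked values in a group. Of the 56, 9 were called higher and 11 lower, beside 24.8% of all genes higher, 34.7% lower and 59.5% called. Of the lower tier 6 of 13 were higher and 3 lower (median 0.23), of the second tier 3 of 8 higher and none lower (0.11), and of the top tier none higher and 8 of 35 lower (-0.10). After quantile normalization 16 were higher and 4 lower, beside 33.0% and 26.3% of all genes. The number called lower was 29 after cyclic loess normalization (30.0% of all genes), 22 with only the groups compared in the fit (37.9%) and 0 with 1 value per group by limma (4.72%; 3418 genes of either direction at an unadjusted p below 0.05). With arrays left out in turn it ran from 1, without the second unirradiated nfsa array, to 19, without the first unirradiated mmca array. It was 17 without the first unirradiated nfsa array, 3 without the second of mmca, and 7 without the second of the radiation-induced fibrosarcoma or without the first of mca4.

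Rplp1 showed the largest rise. From unirradiated to 30 Gy its log2 intensity went from 2.67 and 2.83 to 4.72 and 4.27 in the radiation-induced fibrosarcoma, and from 3.34 and 2.40 to 4.2 and 4.23 in nfsa. It went from 3.34 and 2.63 to 4.47 and 4.54 in mmca and from 3.19 and 3.53 to 4.11 and 4.2 in mca4. All arrays at 30 Gy lay above the unirradiated ones of their tumour, and so did those at 70 Gy (3.86 and 4.03; 3.94 and 3.95; 3.98 and 3.91; 4.24 and 4.38, in the same order). At 50 Gy the values were lower, 3.21 and 3.66 in nfsa, 2.82 and 3.43 in mmca and 3.15 and 3.40 in mca4, and overlapped the unirradiated arrays, while the radiation-induced fibrosarcoma (3.76 and 3.69) stayed above them. The mean rise over doses was 0.93 ± 0.094 (adjusted p = 1.14e-13, limma). The unirradiated arrays of mmca and mca4 in the carbon-ion set, 4.36 to 5.06, were as high as the irradiated gamma arrays. The unirradiated mmca arrays of day 9, with 4.66 and 4.47, were 1.59 ± 0.23 above those of day 1 (adjusted p = 3.03e-07, limma), so Rplp1 differed by as much between unirradiated groups as between irradiated and unirradiated ones. The day 1 control level of mmca rests on 2 arrays.

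Rps9 went from 4.40 and 4.19 to 5.98 and 5.73 at 30 Gy in the radiation-induced fibrosarcoma, from 4.50 and 4.35 to 5.02 and 5.25 in nfsa, from 5.24 and 4.22 to 5.95 and 5.84 in mmca and from 4.60 and 5.03 to 5.41 and 5.45 in mca4. Again no array at 30 Gy overlapped the unirradiated ones of its tumour, and the mean rise over doses was 0.68 ± 0.088 (adjusted p = 4.43e-10, limma). Rpl17 (0.46), Rpl15 (0.39), Rps7 (0.32), Rpl26 (0.23), Rpsa (0.23), Rpl27 (0.19) and Rps27l (0.13) were also called higher. The other 2 probes of Rpl17 changed by -0.03 and 0.21, so its direction depends on the probe. Rps27l, the p53 target, reached 7.92 and 7.89 at 30 Gy in mmca from 6.95 and 7.08, and 7.82 and 7.87 in nfsa from 7.29 and 7.44. In the radiation-induced fibrosarcoma it went from 7.75 and 7.95 to 8.08 and 8.07, and in mca4 from 7.58 and 7.68 to 7.83 and 7.66. Arrays overlapped in mca4 alone of the 4 tumours. Its rise at 30 Gy was called in nfsa (0.48, adjusted p = 0.00347, limma) and in mmca (0.89, adjusted p = 1.86e-07, limma), of which the nfsa call was lost after quantile normalization (0.17, adjusted p = 0.337). It was not called in the radiation-induced fibrosarcoma (0.23, adjusted p = 0.166) or in mca4 (0.12, adjusted p = 0.501). At 70 Gy Rps27l was at 7.43 and 7.21 in the radiation-induced fibrosarcoma, a fall of 0.53 (adjusted p = 0.000826, limma; 0.08 after quantile normalization), and at 7.48 and 7.30 in mmca, a rise of 0.37 (adjusted p = 0.0347, limma). In nfsa it was then at 7.52 and 7.30 (0.04) and in mca4 at 7.25 and 7.41 (-0.30), and at 50 Gy the changes ran from -0.02 to 0.17, none of these called. After quantile normalization the changes at 70 Gy were 0.81 in nfsa and 0.73 in mmca, both called. Of 23 p53 targets 17 rose and 2 fell, where over the doses of day 1 24.8% of all genes were higher and 34.7% lower. Rpl7a fell by 0.34 ± 0.087 (adjusted p = 0.000535, limma), and Rps15a, by 0.14, and Rps19bp1, by 0.12, were the other lower-tier members called lower. The largest falls of the top tier were those of Rpl35 (0.16), Rps26 (0.15) and Rpl29 (0.14). Rpl5 (-0.07), Rpl11 (0.12), Rplp0 (-0.10), Rplp2 (-0.09), Rpl39l (-0.07), Rpl7l1 (-0.06), Rpl36al (-0.05) and Rpl3l (0.59 ± 0.38) did not pass the test. The companions with a TOP tract were divided, with 5 of 18 higher and 4 lower. Of 39 assembly genes 22 were lower and 2 higher. Both lists stand beside the same 24.8% of all genes higher and 34.7% lower.

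Comparing the 2 groups of tumours, the day 1 gamma response differed in 3 of 56 members, where 4.37% of all genes differed towards higher and 17.5% towards lower in the fibrosarcomas (21.9% in all). Rpl7a responded lower by 0.55 ± 0.17 in the fibrosarcomas than in the mammary carcinomas (adjusted p = 0.0176, limma). It was called lower at 30 Gy in the radiation-induced fibrosarcoma (-0.79) and in mca4 (-0.90) and called higher in mmca (0.87), so the pattern did not follow the tumour class. Rpl7l1, a paralog of Rpl7, differed by -0.44 by the probe used (adjusted p = 0.00781, limma) and Rpsa by 0.26 (adjusted p = 0.0378, limma). For Rpl7l1 the difference between the unirradiated groups themselves depended on the probe. The Rpl7a difference was not called without the second unirradiated array of the radiation-induced fibrosarcoma (-0.41), the first of mmca (-0.48) or the second of mca4 (-0.32).

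Between 30 and 70 Gy the bright members dropped, and they dropped with the brightest spots of the arrays. As deposited, 48 of 56 members were lower at 70 Gy and 2 higher, beside 26.5% and 23.7% of all genes (50.2% called). Rps10, of the small subunit, had 8.32 and 8.24 at 30 Gy and 7.16 and 7.33 at 70 Gy in the radiation-induced fibrosarcoma, 8.13 and 7.95 against 7.33 and 7.30 in nfsa, 8.26 and 8.16 against 7.41 and 7.51 in mmca, and 7.96 and 8.01 against 7.36 and 7.51 in mca4. The brightest spot of the same arrays was 8.34 and 8.40 against 7.52 and 7.62, 8.32 and 8.22 against 7.54 and 7.50, 8.34 and 8.28 against 7.78 and 7.81, and 8.14 and 8.32 against 7.62 and 7.72. The groups of Rps10 and of the brightest spot alike did not overlap in any tumour. Rps10 is of the top tier, chosen for closeness to that spot, so this likeness is not a separate finding. The 83 bright genes outside the family were all lower (median -0.62), beside -0.70 for the top tier and -0.61 for the second tier. After quantile normalization 8 members were higher and 14 lower, with 48.1% of all genes higher and 8.62% lower, and the median over all genes shifted from -0.01 to 0.17. The tiers' medians were then -0.05, -0.02 and 0.04. Against the brightest 1% of other genes 13 members were higher and 7 lower, where 90.9% of all genes were higher and 0.503% lower. No direction of the family as a whole between 30 and 70 Gy holds across these scalings. Rpl15 and Rps15a were higher at 70 Gy in all of them: Rpl15 by 0.32 ± 0.091 (adjusted p = 0.00225, limma), with 3.95 and 3.83 against 4.64 and 4.79 in mmca, and Rps15a by 0.23 (0.36 after quantile normalization). For Rpl15 in mca4, 4.37 and 4.36 against 4.35 and 4.51, arrays overlapped. Rpl11 was lower by 0.31 after quantile normalization (adjusted p = 0.000178, limma) and at -0.11 against the brightest 1% (adjusted p = 0.0766). Rps27l was 0.53 lower as deposited and 0.21 higher after quantile normalization, each called.

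**Figure D4:**
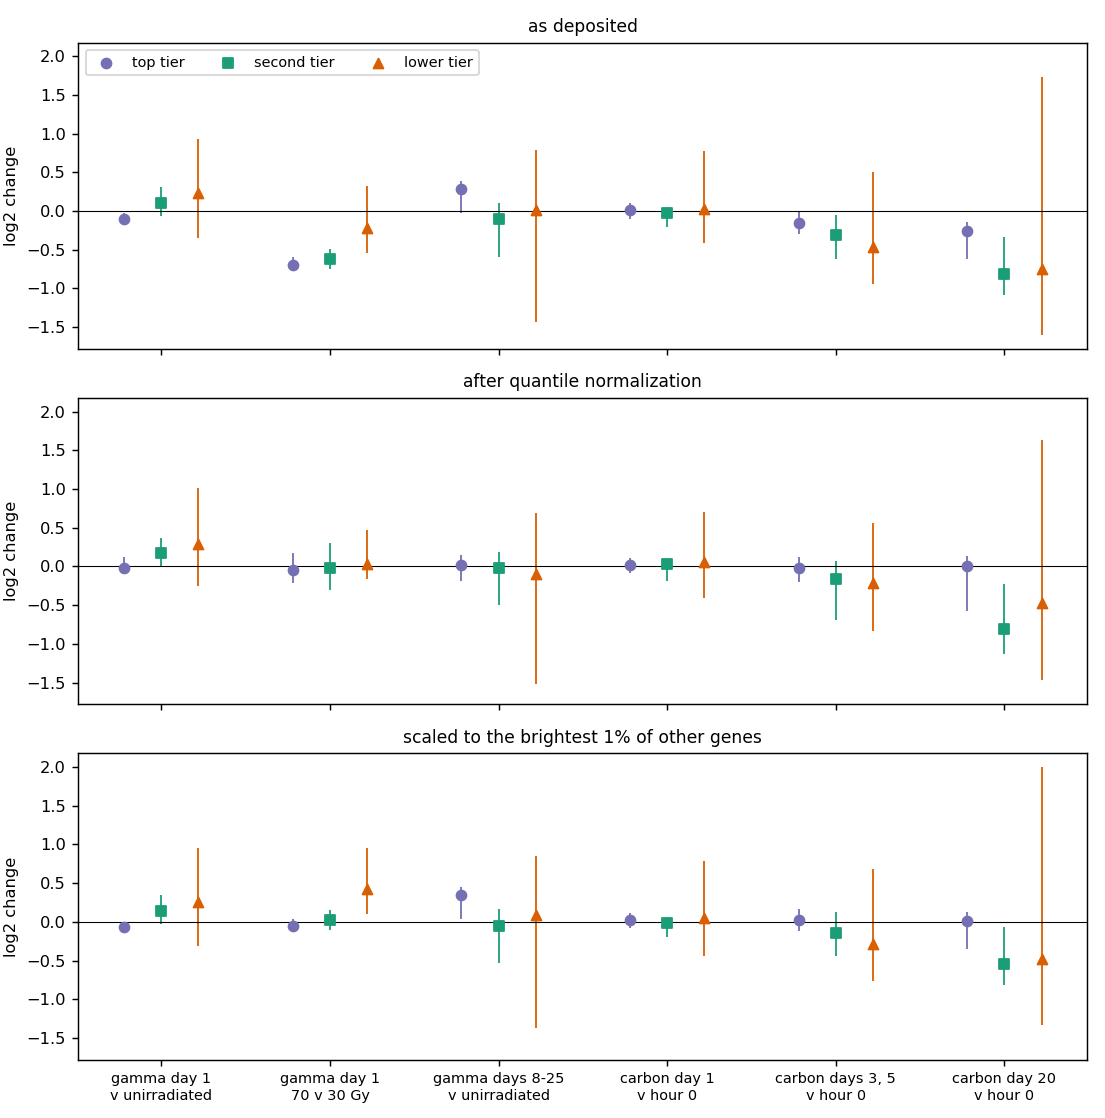
Log2 change of the members in 6 comparisons, with values as deposited (top), after quantile normalization (middle) and scaled to the brightest 1% of other genes (bottom). Symbols are the median of the top, second and lower tier, and vertical lines run from the lowest to the highest member of the tier. The 70 against 30 Gy change of the top tier goes from -0.70 to -0.05 after quantile normalization, while that of the second tier on carbon day 20 stays at -0.81.

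Between day 8 and day 25 after gamma rays the lower members parted from the bright ones. Against unirradiated arrays, 40 of 59 members were higher and 9 lower, beside 34.0% and 39.6% of all genes (73.6% called). The 37 top-tier members made 36 of the rises (median 0.28), with Rpl19, Rps29, Rpl37a and Rps16 at 0.37 to 0.39 and Rpl5, Rplp0 and Rplp2 at 0.36, 0.33 and 0.30. Of 85 bright genes outside the family 31 were higher and 25 lower (median 0.01). After quantile normalization 14 members were higher and 9 lower (30.7% and 43.7% of all genes), the top tier's median being 0.02. In single tumours the top tier was higher by 0.47 in the radiation-induced fibrosarcoma, 0.78 in nfsa and 0.33 in mca4, and changed by -0.43 in mmca, where 35 of 37 were lower (16.8% of all genes). Only mmca had unirradiated arrays of a later day (day 9), and from day 1 to day 9 without irradiation its top tier was higher by 0.53 in 37 of 37 members (6.86% of all genes higher). In the other 3 tumours, time and irradiation cannot be told apart. The late mmca change pools day 9 with a later day at a higher dose, which had no unirradiated arrays of its own. For that later part of mmca, time and irradiation cannot be told apart either.

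Rpl7a had the largest fall, 1.44 ± 0.086 (adjusted p = 1.88e-24, limma), to 0.370 of the unirradiated level. In nfsa its log2 intensity was 3.13 and 3.05 unirradiated, 2.58 and 2.85 on day 1 after 30 Gy, 1.26, 1.17 and 1.26 on day 4 and 1.12, 1.12 and 1.33 on day 9. In the radiation-induced fibrosarcoma it was 3.02 and 3.56 unirradiated, 2.48, 2.29 and 2.16 on day 8 and 1.93, 1.93 and 1.86 on day 16. In mca4 it was 4.06 and 3.14 unirradiated, 1.91, 2.13 and 2.13 on day 11 and 1.99, 1.32 and 1.39 on day 25. In mmca it was 2.45 and 2.55 on unirradiated day 9, 2.13, 2.21 and 1.93 on day 9 after 30 Gy and 1.28, 1.51 and 1.54 on day 19 after 50 Gy. Every array from day 8 to day 25 lay below the unirradiated arrays it was compared with, which for mmca are those of day 9 (its unirradiated day 1 arrays, 2.14 and 2.41, overlapped the day 9 arrays after 30 Gy). The fall was called in each tumour (-1.97 in nfsa, -1.25 in the radiation-induced fibrosarcoma, -1.79 in mca4 and -0.73 in mmca). It was -1.51 after quantile normalization and -1.38 against the brightest 1%. By its only probe, of mean log2 intensity 2.15, Rpl7a thus fell late after gamma rays in these 4 tumours and late after carbon ions in mmca and mca4. That probe is annotated to a single sequence record that is not a RefSeq transcript, so the fall is that of the probe.

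Rps27l came next, with a fall of 0.59 ± 0.055 (adjusted p = 8.86e-16, limma). In the radiation-induced fibrosarcoma it was 7.30, 7.25 and 7.16 on day 8 and 6.97, 6.96 and 6.84 on day 16, below the unirradiated 7.75 and 7.95 and below the 8.08 and 8.07 of day 1. In nfsa it was 7.0, 6.72 and 6.69 on day 9 after 30 Gy and in mca4 6.93, 7.21 and 6.94 on day 11. These values too lay below the unirradiated arrays of the same tumour. The fall was called in the radiation-induced fibrosarcoma (-0.83), nfsa (-0.64) and mca4 (-0.65) and not in mmca (-0.26, adjusted p = 0.0533, limma). Rpl14 fell by 0.52 (adjusted p = 1.34e-11, limma), with 7.31 and 7.39 unirradiated and 6.95, 6.79 and 6.83 on day 9 in nfsa, but the radiation-induced fibrosarcoma showed no such fall (0.03, adjusted p = 0.829, limma). The other falls called were those of Rps15a (-0.37), Rpl13a (-0.33), Rpl39l (-0.27), Rpl7l1 (-0.26), Rps19bp1 (-0.22) and Rps24 (-0.19). Of these Rpl13a (-0.11) and Rps24 (-0.11) were not called after quantile normalization. Rpl17 rose by 0.79 ± 0.074 (adjusted p = 2.54e-15, limma), from -0.24 and -0.04 to 0.85, 0.30 and 0.42 in the radiation-induced fibrosarcoma (day 16) and from 0.00 and 0.59 to 1.41, 1.07 and 0.97 in mca4 (day 25). Its other 2 probes changed by -0.53 and -0.02, so here too the direction of Rpl17 depends on the probe. Rplp1 rose by 0.35 and Rpl15 by 0.21, while Rpl11 (-0.11) and Rpl3l (0.02) did not pass the test. In mmca Rplp1 fell by 0.97 (adjusted p = 1.93e-05, limma) against unirradiated day 9, and Rpl11 went from 7.72 and 8.00 to 7.57, 7.33 and 7.18 on day 9 and 6.75, 6.83 and 6.77 on day 19. Beside these, 14 of 16 macrophage markers and 13 of 14 T and NK cell markers were higher (medians 0.91 and 1.50) and 45 of 70 mitochondrial ribosomal proteins lower. Of all genes 34.0% were higher and 39.6% lower. The part of other cells in these changes was not tested.

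The latest mca4 arrays, on day 41 after 50 Gy, did not continue this course. Against day 25, 9 of 9 second-tier members (median 0.64), 5 of 13 lower-tier members and 36 of 37 top-tier members were higher, and 3 members, all of the lower tier, were lower (17.8% of all genes higher, 15.4% lower, 33.2% called). Counts in this paragraph are as deposited. The top 1% of genes outside the family had array medians of 7.76, 7.26 and 7.39 on day 25 and 7.75 and 7.93 on day 41. Rpl11 was 7.65, 6.93 and 7.24 on day 25 and 8.13 and 8.08 on day 41 (0.83 ± 0.13, adjusted p = 7.5e-07, limma), and 0.35 higher after quantile normalization (adjusted p = 0.032, limma). Rpl7a was 2.10 and 2.71 on day 41, above day 25 but still below the unirradiated 4.06 and 3.14. In the radiation-induced fibrosarcoma, from day 8 to day 16 after 30 Gy, 8 of 9 second-tier and 6 of 13 lower-tier members fell and 0 of the top tier did (19.6% of all genes lower), Rpl27 by 0.68 and Rps9 by 0.68. Between day 8 (30 Gy) and days 23 or 35 (50 Gy), 0 members were called in scc7 by limma, where 2.25% and 3.38% of all genes were called, and dose and day cannot be told apart. In nrs1, from day 8 (30 Gy) to day 15 (50 Gy), 7 members were lower and 1 higher (9.47% and 3.29% of all genes), among them Rplp1 (-0.61) and Rps27l (-0.46).

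The response to 30 Gy on day 1 was set between beams in the 2 carcinomas, each beam against its own unirradiated arrays. In mca4 0 members differed by limma (28.6% of all genes). In mmca 1 member, Rps15a, responded higher to carbon ions (by 0.97) and 19 lower (12.6% and 15.4% of all genes, 28.0% in all), Rplp1 by -1.72 and Rpl7a by -1.48. Beside it, the unirradiated arrays themselves lay apart in mmca: Rplp1 was at 3.34 and 2.63 on gamma day 1 and at 4.70 and 4.36 at carbon hour 0, and the 30 Gy arrays were close, at 4.47 and 4.54 after gamma rays and 4.42 and 4.25 after carbon ions. The beams were run as separate sets of arrays, so beam and set cannot be told apart.

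Among tumours, 2 members stood apart from the family in how widely their levels ranged. The range between the highest and the lowest tumour median was 0.63 for the median lower-tier member, 0.49 in the second and 0.67 in the top tier. These medians pool arrays of all doses and days, in unequal parts by tumour. For Rpl39l it was 4.86. Rpl39l lay between 4.13 and 5.73 (median 4.99) on the 24 arrays of nfsa. Its medians elsewhere were 0.52 in the radiation-induced fibrosarcoma, 0.45 in nrs1, 0.41 in scc7, 0.21 in mmca and 0.12 in mca4, and no array of these 5 tumours exceeded 1.18. The ranges of these 5 overlap. In unirradiated tumours Rpl39l was 5.51 and 5.64 in nfsa against 1.04 and 0.78 in the radiation-induced fibrosarcoma, a difference of 4.66 ± 0.14 (adjusted p = 3.52e-41, limma). In nfsa it was lower on day 4 after gamma rays, at 4.90, 4.94 and 4.90 after 30 Gy and 4.50, 4.60 and 4.13 after 50 Gy (-0.91 ± 0.11, adjusted p = 2.05e-10, limma), with no overlap with the unirradiated arrays. After carbon ions it was 4.58 and 4.42 on day 5 and 5.20 and 5.21 on day 20 (0.70, adjusted p = 8.84e-05, limma).

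Rps15a, as its probe reads, was high in nrs1 (3.97 to 4.72, median 4.29), intermediate in mmca (median 3.38) and mca4 (3.26), and low in nfsa (1.13), the radiation-induced fibrosarcoma (1.10) and scc7 (1.07). The nrs1 arrays lay above all mmca arrays but not quite above the highest mca4 array (3.97). The 3 low tumours overlapped one another and lay below all others: the lowest mca4 array was at 2.07 and the highest array of the low tumours at 1.99. The order followed the epithelial markers, which were high in nrs1, mmca and mca4 and near or below 0 in the other tumours.

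**Figure D5:**
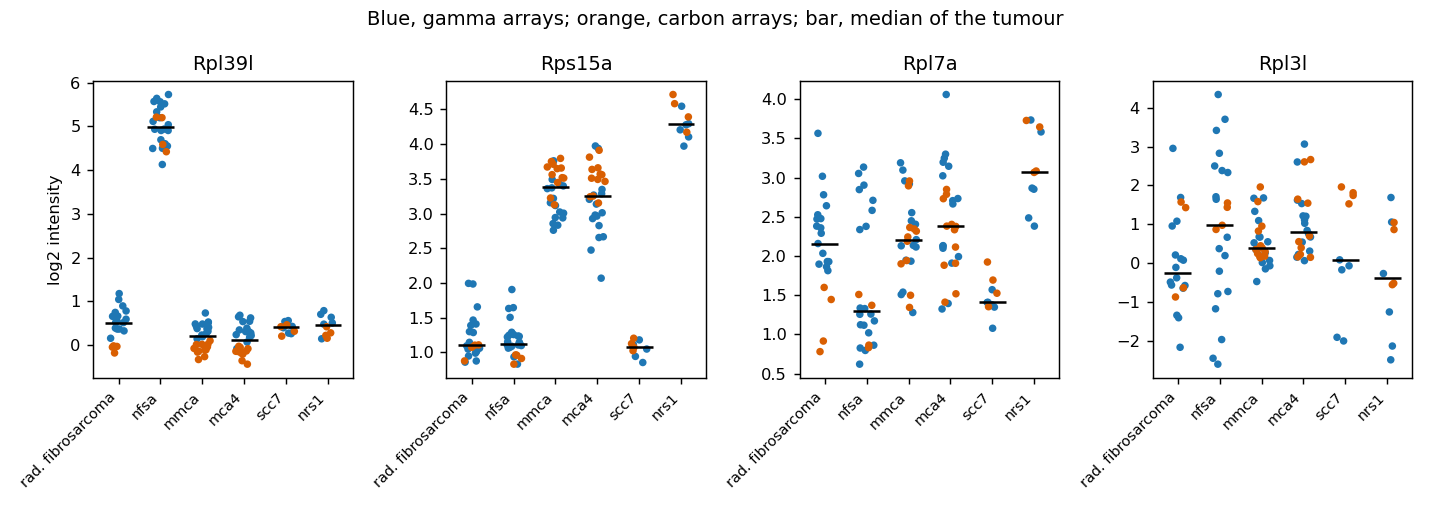
Log2 intensity of Rpl39l, Rps15a, Rpl7a and Rpl3l on every array by tumour (rad. fibrosarcoma is the radiation-induced fibrosarcoma), blue for gamma and orange for carbon arrays, with a bar at the tumour median; each panel has its own vertical axis. Rpl39l is at 4.13 to 5.73 in nfsa and below 1.2 elsewhere, and Rps15a is highest in nrs1.

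Against the unirradiated mammary carcinomas, the unirradiated fibrosarcomas had 3 members higher and 7 lower, beside 41.3% and 26.1% of all genes (67.4% called), and none of the 37 top-tier members was called. Rpl39l was 2.84 ± 0.099 higher, which rests on nfsa, and Rps15a 1.84 ± 0.10 lower (1.46, 1.65, 1.64 and 1.63 against 3.49, 3.76, 3.29 and 3.21; adjusted p = 3.44e-27, limma). Rpl7l1 (0.43) and Rps27l (0.28) were higher, but the other 2 probes of Rpl7l1 were at -0.17 and -0.03, so its direction depends on the probe. Rpl15 (-0.63), Rpl17 (-0.52), Rps9 (-0.41), Rpl26 (-0.37), Rplp1 (-0.36) and Rpsa (-0.35) were lower. After quantile normalization 17 members were lower and 3 higher (26.8% and 41.3% of all genes). The members called lower numbered 53 after cyclic loess normalization (33.6% of all genes), 54 when scaled to the brightest 10% of other genes (42.8%) and 46 when scaled to the brightest 1% (31.1%). The calls of Rps9 and Rplp1 were lost without the first unirradiated mmca array (-0.16 and -0.19), and 4 members were called lower without that array, without the second of nfsa or without the second of mca4. Between the carcinomas, mca4 had 4 members higher than mmca and 2 lower, with 28.4% and 23.5% of all genes (51.8% called). Rpl7a was 1.33 ± 0.21 higher (adjusted p = 2.72e-07, limma), Rps27l 0.61, Rpl7l1 0.58 and Rps19bp1 0.48, while Rpl15 was 0.70 and Rps15a 0.38 lower. The other 2 probes of Rpl7l1 were at 0.15 and -0.25. At hour 0 of the carbon set 0 members were called between these tumours (2.71% of all genes), and Rpl7a was at 2.96 and 2.90 in mmca and 2.73 and 2.85 in mca4 (-0.14, adjusted p = 0.813, limma). Of scc7 and nrs1, compared on gamma day 8, scc7 was lower in 7 of 9 second-tier and 7 of 13 lower-tier members (26.5% of all genes). Rpl27 was 7.33 and 7.17 in scc7 and 8.53, 8.27 and 8.34 in nrs1 (-1.13 ± 0.14, adjusted p = 1.37e-10, limma), and on carbon day 5 it was 7.13 and 7.25 against 8.38 and 8.31.

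The genes most like the family over the 54 group means are given by Pearson's r, as a description across 12641 genes on shared arrays. Like the mean of all members were Gm11517 (0.966), Sfswap (0.950), Tpt1 (0.945) and Pabpc1 (0.942), all of mean log2 intensity 7.95 to 8.08 and so near the brightest spots themselves. Like the mean of the members below the top tier were Mrgprg (0.809), Cox7c (0.806), Dpy30 (0.789), Eef1b2 (0.785) and Eif3f (0.783). Like Rpl39l was Col6a5 (0.978), followed by Xpa (0.938). Like Rps15a were Il17re (0.970), Perp (0.969) and S100a14 (0.968), genes known from epithelia. Like Rpl3l were muscle genes, Casq1 (0.821), Hspb6 (0.776) and Ldb3 (0.718), and like Rpl17 the interferon-inducible Gbp8 (0.798) and Trim30a (0.785) beside AW112010 (0.832) and Il18bp (0.827).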

How the data were processed

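RNA of dissected tumours was hybridised to CodeLink arrays, 81 after gamma rays and 40 after carbon ions. The deposited table holds the authors' single-colour intensity values on a linear scale. The median of an array over all probes, after taking log2, ranged from 0.394 to 0.887 on gamma arrays and from 0.0502 to 0.102 on carbon arrays. How the authors scaled the arrays, and how background and flagged spots were treated, is not given in the sources used here. Missing values, 9.99 to 18.62% of the probes of a gamma array and 0.541 to 4.922% of a carbon array, stayed missing. Intensities at or below 0 (1831 values) and those below 0.1269 took that floor value, which is the 5th percentile of the positive intensities. Probe symbols came from GEO's platform annotation, which can be old: 21615 probes carry 1 symbol, 681 several and 13931 none. Genes in the dimmest 20% by mean were not tested. No set of arrays was left out.

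All arrays entered 1 fit in limma 3.58.1 (R 4.3.3), with a mean per group, a variance trend with intensity and 67 residual degrees of freedom for a gene with no missing value. P-values were adjusted over all genes tested (Benjamini-Hochberg, threshold 0.05), and a change is a difference of group means on the log2 scale, tumours weighing equally, ± SE. The fit was tested on simulated data. Where a fit could not estimate a group for lack of values, the gene was left out of that comparison. Arrays were also normalized by quantiles or cyclic loess, scaled to bright genes (the brightest 1% chosen after seeing the data), and left out in turn. Named genes are, per comparison, the 5 largest called rises and falls, the 3 members farthest from the members' median, the paralogs, the P stalk genes and the 5S RNA partners, and up to 4 genes of other lists; the tiers and other genes singled out were chosen after their values were seen. The members and lists were chosen with earlier results of these data known.

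Same-numbered arrays of mca4 in the carbon set deviated together in 15 of 15 pairs of groups (correlation of deviations from the group means 0.124 to 0.355, median 0.193). This is seen in the data and not given by a label. The main fit did not pair arrays in any tumour, and the replicate block was run only as an alternative. In mmca of the carbon set the correlations had a median of 0.279 and a lowest value of -0.004, and elsewhere they were mixed in sign. Plots used matplotlib 3.10.9 (Python 3.11.15).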

Additional observations from a re-analysis of the deposited data

Results flagged for a closer look

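The response of 3 members to gamma rays on day 1 differed between the fibrosarcomas and the mammary carcinomas by the test of the difference itself in limma. Of all genes 21.9% were called in that test, a larger share than among the members. By the probes used, the fibrosarcomas minus the carcinomas gave -0.55 for Rpl7a, -0.44 for Rpl7l1 and 0.26 for Rpsa (log2). Each was lost under at least 1 of the 4 other scalings (quantile, cyclic loess, brightest 10%, brightest 1%): Rpl7a and Rpl7l1 against the brightest 10% (adjusted p = 0.0725 and 0.0643, limma), Rpl7l1 also after cyclic loess (0.0569) and Rpsa after quantile normalization (0.0586). The Rpsa difference was not called in 9 of the omissions of a single array.

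In mmca the day 1 response to 30 Gy of carbon ions minus that to gamma rays was called in 20 members, beside 28.0% of all genes (12.6% higher, 15.4% lower). Rplp1 differed by -1.72, Rpl7a by -1.48, Rps9 by -1.25, Rpl11 by -1.19, Rps27l by -1.15 and Rps13 by -1.04. Rps7 (-0.99), Rpl17 (-0.95), Rpl27 (-0.95), Rpl7l1 (-0.91), Rpl13a (-0.90), Rpl14 (-0.77) and Rpl26 (-0.71) followed, and the top tier gave Rps3 (-0.58), Rps15 (-0.52), Rpl24 (-0.47), Rpl36al (-0.47), Rps10 (-0.46) and Rpl22 (-0.45). Rps15a was the exception at 0.97. Under all 4 other scalings only Rpl11, Rpl7a, Rplp1, Rps15a and Rps27l kept their call and direction. Beam and set of arrays cannot be told apart.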

How the results depend on the processing

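The floor, the filter on dim genes and the variance trend changed no count past 1.5 times and no call or direction of the 147 results for named genes. Normalization by brightness changed most. The counts of members below show dependence on the processing alone. They stand without the share of all genes and are not read against other genes. Members called lower on gamma day 1 numbered 11 as fitted, 4 after quantile normalization, 3 with missing values also set to the floor, 29 after cyclic loess, 22 with only the groups compared, 0 with 1 value per group and 1 to 19 with an array left out. For 70 against 30 Gy they numbered 48, then 14, 11 and 11 under the first 3 of these, 7 when scaled to the brightest 1% and 44 to 48 with an array left out; the median of members below the top tier was -0.32 as fitted, 0.037 (quantile), -0.033 (missing at the floor), -0.003 (brightest 10%) and 0.31 (brightest 1%), and -0.36 to -0.30 with an array left out. Members called higher late after gamma rays numbered 40, then 14 (quantile), 8 (missing at the floor) and 2 (1 value per group), and 37 to 40 with an array left out. On carbon day 1 the 1 call became 0 (quantile, brightest 1%, replicate block, each array left out) or 2 (cyclic loess, own groups). On carbon days 3 and 5 the 31 calls became 14 (quantile), 11 (missing at the floor, brightest 1%, 1 value per group) or 12 (cyclic loess, brightest 10%), and 16 to 34 with an array left out. On carbon day 20 the 51 calls became 27 (quantile, brightest 10%), 20 (missing at the floor, cyclic loess, brightest 1%) or 22 (1 value per group), and 35 to 55 with an array left out, while the median below the top tier went from -0.81 to -0.54 (cyclic loess, brightest 1%), and to -0.84 to -0.77 with an array left out. Members called lower in fibrosarcomas numbered 7, then 17 (quantile), 53 (cyclic loess), 54 (brightest 10%), 46 (brightest 1%) and 1 (1 value per group), and 4 to 8 with an array left out, with a median of -0.14 as fitted and -0.39 (brightest 10%). For the difference in day 1 response the 2 lower calls became 1 (missing at the floor, cyclic loess) or 0 (brightest 10%, 1 value per group) and were 1 to 2 with an array left out; mca4 against mmca had 3 to 5 higher calls with an array left out, and has no fit with 1 value per group. The other medians below the top tier with an array left out were 0.10 to 0.16 (gamma day 1), -0.13 to -0.08 (late gamma), -0.005 to 0.024 (carbon day 1), -0.41 to -0.31 (carbon days 3 and 5), -0.18 to -0.13 (fibrosarcomas), 0.02 to 0.07 (day 1 response) and 0.06 to 0.26 (mca4 against mmca). Directions turned for Rpl5 on gamma day 1 (0.49, mean of probes). They turned in 70 against 30 Gy for Rpl39l (0.19 quantile, 0.27 brightest 10%, 0.59 brightest 1%), Rpl7a (0.27 and 0.59, both bright scalings), Rpl7l1 (0.051, 0.086 and 0.40), Rplp1 (0.014 and 0.33), Rps19bp1 (0.026 and 0.34) and Rps27l (0.21 quantile, 0.18 missing at the floor, 0.10 brightest 1%). Late gamma Rps16 turned with missing values at the floor (-0.31). On carbon days 3 and 5 Rpl17 turned (-0.10 missing at the floor, -0.58 mean of probes). On carbon day 20 Rpl17 (-0.55, mean of probes), Rpl36al (0.028, cyclic loess), Rpl5 (0.044 cyclic loess, 0.001 brightest 1%, 0.068 mean of probes), Rplp0 (0.14 quantile, 0.17 cyclic loess) and Rplp2 (0.007 quantile, 0.006 missing at the floor, 0.047 cyclic loess, 0.008 brightest 1%) turned. In fibrosarcomas Rpl11 (-0.22, brightest 10%) and Rpl36al (-0.14 cyclic loess, -0.21 brightest 10%) turned. With the replicate block the carbon day 1 count went from 1 to 0, Rplp0 gained its call on gamma day 1 (-0.10, adjusted p = 0.0495), and Rps15a on carbon day 1 (0.0546), Rplp1 in fibrosarcomas (0.0663) and Rps15a between the carcinomas (0.0606) lost theirs (limma adjusted p); it changed no other call of the named genes. The cause of these changes was not tested. Precision is limited by 2 or 3 arrays per group. Whether closeness to the brightest spot limits the changes read from the top tier was not tested.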
